A study of Mus musculus with 10 samples.

Results

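The Wnt ligands, the Frizzled receptors and co-receptors, and the secreted proteins that modulate them were examined by RNA sequencing in 10 mouse melanomas. Members were taken by gene symbol: the Wnt, Fzd, Sfrp, Dkk and Rspo genes, Lrp5, Lrp6, Wif1 and Frzb. This gave 45 of the 47643 genes counted: 19 ligands, 10 Frizzled receptors, 2 co-receptors, 6 secreted Wnt binders, 4 Dickkopf (Dkk) genes and 4 R-spondins. The study compared 5 tumours labelled Fes KO, whose genotype for the tyrosine kinase gene Fes is given as Fes-/-, with 5 tumours labelled Fes WT (Fes+/+). The alleles that all 10 tumours shared included Tyr::CreERT2/+ and BRafV600E/+. In this model the tyrosinase promoter drives a tamoxifen-inducible Cre recombinase in the melanocyte lineage and so switches on mutant Braf. Tamoxifen (the 4OH form, 5 mM) was put on the back skin. The labels give no age or strain, and they do not name the mouse behind each tumour, so the p-values cover only the spread among these samples, which may be from fewer mice.

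Wnt proteins are secreted, lipid-modified ligands. When they bind a Frizzled receptor together with Lrp5 or Lrp6, beta-catenin escapes degradation and works with TCF/LEF factors in the nucleus; Wnt5a and Wnt11 are best known for signalling that does not use beta-catenin, including the planar polarity branch. The Sfrp proteins, Frzb and Wif1 bind Wnts outside the cell, Dkk1, Dkk2 and Dkk4 act on Lrp5 and Lrp6, and R-spondins keep Frizzled receptors at the cell surface. In skin the pathway is known for hair follicle formation and growth and for the development of melanocytes from the neural crest.

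Libraries held 13226783 to 16599120 counts, so that 3 counts correspond to 0.183 to 0.229 CPM (counts scaled to the library size). Fes was at 33.4, 32.1, 29.2, 57.5 and 42.3 CPM in Fes KO 1 to 5 and at 84.6, 74.5, 72.4, 72.7 and 102 CPM in Fes WT 1 to 5, so the groups did not overlap, with log2 fold change -1.06 ± 0.19 (SE, adjusted p = 0.0846). Reads of Fes thus remained in every Fes KO tumour, at a mean of 38.9 ± 11.5 CPM against 81.3 ± 12.7 CPM (SD, n = 5 each), and the counts per gene do not show which part of Fes they cover. Of the 12 melanocyte markers, Sox10 was at 392 to 969.5 CPM across Fes KO and 461 to 809 CPM across Fes WT, while the pigment genes were below it and uneven. Dct, a melanin enzyme, reached 325 CPM in Fes KO 2. It was at 29.9 to 47.0 CPM in Fes KO 1, 3 and 4, while Fes KO 5 had 1.89 CPM and the Fes WT tumours 6.78 to 21.4 CPM. Tyrp1, another such enzyme, reached 71.3 CPM in Fes KO 2. It was at 0 in Fes KO 5 and Fes WT 1 and at most 4.2 CPM in the others. Log2 fold changes were above 0 for 9 of the 10 melanocyte markers tested, up to 3.99 for Slc45a2 (SE 1.02, adjusted p = 0.233), and none was called. Some libraries stood apart from the rest. The summed level of 10 hair follicle markers was 15393 CPM in Fes KO 2 and, in Fes WT 3, 1016 CPM, against 1.75 to 5.79 CPM in the other 8 tumours, and Krt25, Krt27 and Krt33a, which mark the inner root sheath and hair shaft, were at 0 in several of those. Keratinocyte markers summed to 5198 CPM in Fes KO 2, 213 CPM in Fes WT 5 and 131 CPM in Fes WT 3, against 13.9 to 18.4 CPM elsewhere. Skeletal muscle markers summed to 15648 CPM in Fes WT 3, and Fes KO 2 had 1914 CPM, against 14.3 to 471 CPM elsewhere. Xist, made from the inactive X chromosome, exceeded 100 CPM in Fes KO 1, Fes KO 2 and Fes WT 5 only.

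No member was called at an adjusted p below 0.05 by edgeR's quasi-likelihood test with Benjamini-Hochberg adjustment, which called 0.175% of all 14816 genes tested. Of the 45 members, 28 passed the filter on low counts and were tested; 11 ligands, 2 Dkk genes and all 4 R-spondins did not pass. Without that filter 43 members were tested and none was called. At an unadjusted p below 0.05 there were 4 members, Wnt6, Wnt10a and Fzd3 with higher and Sfrp1 with lower values in Fes KO. That was 14.3% of the tested members, against 9.62% of all tested genes. DESeq2 called 1 member, Wnt6, where it called 1.82% of all genes, and limma-voom with sample quality weights and limma on the deposited log2 values called none. In simulated counts, 52 of 205 DESeq2 calls and 6 of 130 edgeR calls were false, and edgeR called 40% of the 2-fold changes. Those counts were drawn with the spread per gene that edgeR estimated, and no tumour was set apart in them. The shares of false calls may therefore differ in the real tumours, and they do not decide whether the call of Wnt6 is false. The median log2 fold change of the 28 was 0.24, against 0.01 over all tested genes, and 17 of the 28 (60.7%) were above 0, against 52.4%. Without Fes KO 2 the median was -0.06, with 14 of 29 tested members above 0. In that edgeR fit 8 of the 29 had an unadjusted p below 0.05, where 12.1% of all genes did. Without the 3 tumours that had Xist it was 13 of 28, where 13.7% of all genes did. Without Fes WT 1 it was 4 of 30, where 6.96% of all genes did. In 1 of the 28 (3.57%) the tumours of the 2 groups did not overlap, against 1.9% of all tested genes.

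**Figure D1:**
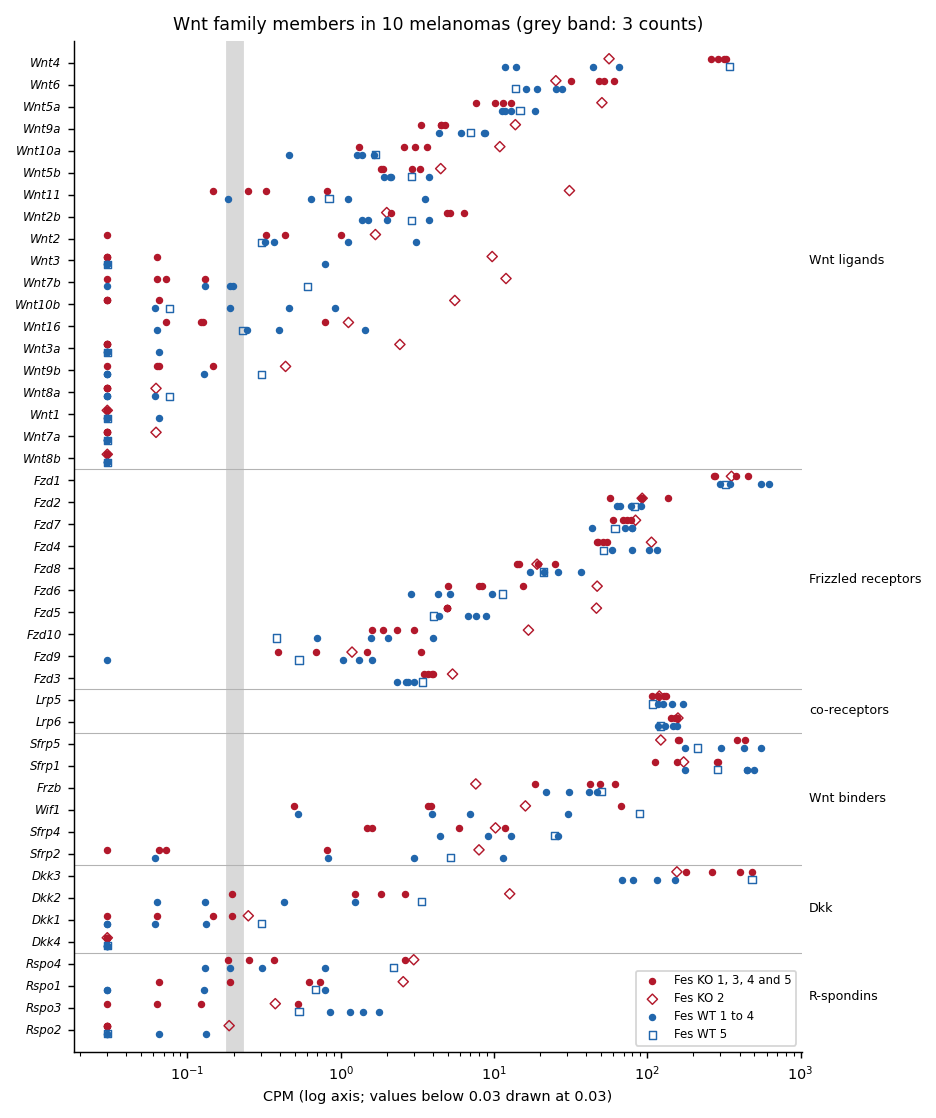
CPM of each of the 45 members in every tumour on a log axis, by role; red is Fes KO, blue is Fes WT, the open diamond is Fes KO 2, the open square is Fes WT 5, and the grey band marks 3 counts. Levels run from 0 to 620.2 CPM (Fzd1 in Fes WT 4), and the diamond lies far to the right of the other tumours for several ligands and receptors, such as Wnt11 at 31.1 CPM.

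Set per kilobase of exon, the scale on which genes can be compared, the highest levels belonged to the Wnt binder Sfrp5 (154 CPM per kb, mean of the 10 tumours), the receptor Fzd1 (92.4), Dkk3 (70.9), the binder Sfrp1 (65.5) and the ligand Wnt4 (41.1). They were followed by Fzd2 (23.3), Fzd7 (15.5), Wnt6 (14.6), Lrp5 (13.1), Frzb (11.4), Fzd4 (10.7) and Lrp6 (10.5). Of these 12 members, 4 were receptors and 2 were ligands. Wnt8b and Dkk4 had no count in any tumour, which allows up to 3 counts, or 0.183 to 0.229 CPM, in each (counting error only).

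Wnt4 and Wnt6 made up most of the ligand RNA in every tumour but Fes KO 2. Wnt4, a ligand known for its part in kidney and female reproductive tract development (ENSMUSG00000036856, chromosome 4, 137277489 to 137299726, GRCm38), was at 259.8, 56.3, 314, 289 and 328 CPM in Fes KO 1 to 5 and 14, 64.9, 44.6, 11.7 and 343 CPM in Fes WT 1 to 5. It was high in 4 of 5 Fes KO tumours and in Fes WT 5, the highest of all 10, and low in Fes KO 2 and the other 4 Fes WT tumours, so the groups overlapped. The means were 249 ± 111 CPM and 95.7 ± 140.2 CPM (SD, n = 5 each), with log2 fold change 1.38 ± 0.89 (SE, adjusted p = 0.643). The log2 fold change was 2.88 without Fes WT 5 (adjusted p = 0.156) and 3.19 without the 3 tumours that had Xist (adjusted p = 0.0750, and 0.0750 to 0.833 over the alternatives that gave one). Fes WT 5 had the highest Fes level of all tumours, 102 CPM. In a bulk tumour, fewer cells of a type and less RNA per cell cannot be told apart.

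Wnt6 (ENSMUSG00000033227, chromosome 1, 74771892 to 74785322, GRCm38), a ligand made by surface epithelia in development, was at 52.3, 25.3, 48.2, 31.7 and 60.6 CPM in Fes KO 1 to 5 and 18.9, 25.3, 16.1, 27.8 and 13.9 CPM in Fes WT 1 to 5. All Fes KO tumours but Fes KO 2 lay above every Fes WT tumour, and Fes KO 2 matched Fes WT 2. The means were 43.6 ± 14.7 CPM across Fes KO and 20.4 ± 5.96 CPM across Fes WT, with log2 fold change 1.1 ± 0.27 (SE, adjusted p = 0.215) and an unadjusted p of 0.0024. By DESeq2 the adjusted p was 0.0134 and by limma-voom with sample quality weights 0.0554, and over the 21 alternatives it ran from 0.0134 to 0.529, with log2 fold changes between 0.95 and 1.23. An antisense gene that overlaps Wnt6, Gm29539, had 0 to 6 counts per tumour.

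Wnt10a, which lies 6193 bases downstream of Wnt6 on the same strand (ENSMUSG00000026167, chromosome 1, 74791516 to 74804179, GRCm38) and is required for teeth and other skin appendages, was at 1.32, 10.9, 2.59, 3.66 and 3.06 CPM in Fes KO 1 to 5 and 0.457, 1.65, 1.38, 1.28 and 1.68 CPM in Fes WT 1 to 5. Fes KO 2 was the highest, and Fes KO 1 lay among the Fes WT tumours. The log2 fold change 1.74 ± 0.56 (SE, adjusted p = 0.355) became 1.03 without Fes KO 2 (adjusted p = 0.354, and 0.0987 to 0.631 over the alternatives). Wnt2b gave 2.14, 2.0, 6.41, 5.17 and 4.96 CPM in Fes KO 1 to 5 and 1.5, 3.76, 1.38, 2.01 and 2.9 CPM in Fes WT 1 to 5, with overlapping groups and a log2 fold change 0.84 ± 0.41 (SE, adjusted p = 0.558).

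**Figure D2:**
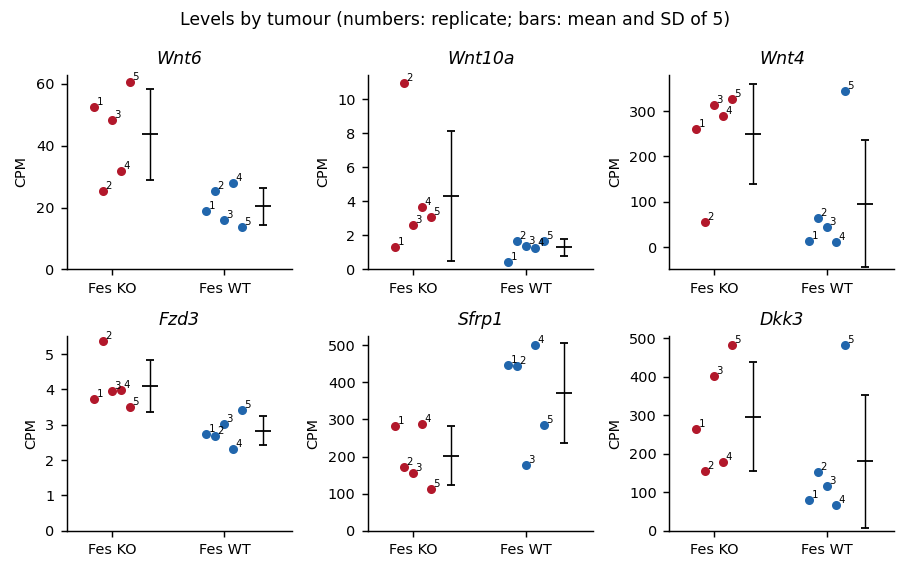
CPM of Wnt6, Wnt10a, Wnt4, Fzd3, Sfrp1 and Dkk3 in each numbered tumour, with the mean and SD of 5 tumours per group; these are the 4 members with an unadjusted p below 0.05 and 2 in which Fes WT 5 stood apart. Wnt4 and Dkk3 reached 343 and 482 CPM in Fes WT 5, while the other Fes WT tumours were at 64.9 CPM or below and 153 CPM or below.

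Summed over the 19 ligands, the level per kilobase was 91.1, 59.0, 104, 89.9 and 112 CPM per kb in Fes KO 1 to 5 and 18.8, 33.8, 27.5, 20.4 and 95.3 CPM per kb in Fes WT 1 to 5. Every Fes KO tumour lay above 4 of the 5 Fes WT tumours, and Fes WT 5 lay within the Fes KO range. Wnt4 held 68.0, 22.8, 72.2, 76.5 and 70.1% of this sum in Fes KO 1 to 5 and 17.7, 45.8, 38.7, 13.7 and 85.9% in Fes WT 1 to 5. Wnt6 held 26.2, 19.6, 21.2, 16.1 and 24.8% in Fes KO and 46.0, 34.1, 26.7, 62.3 and 6.64% in Fes WT, so in Fes WT 1 and Fes WT 4 its share exceeded that of Wnt4.

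**Figure D3:**
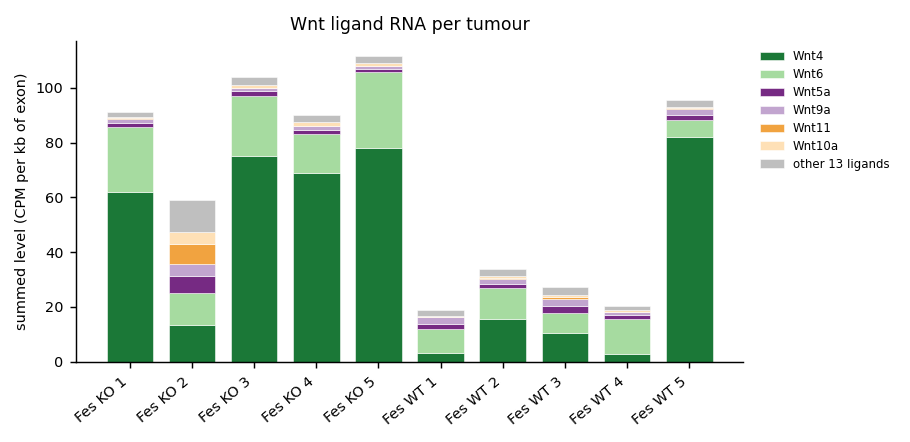
Summed ligand level per tumour in CPM per kb of exon, stacked by ligand. Wnt4 (dark green) holds 68.0% or more in Fes KO 1, 3, 4 and 5 and in Fes WT 5, and Fes KO 2 has the largest share from ligands other than Wnt4 and Wnt6.

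Among the ligands best known outside the beta-catenin branch, none was called. Wnt5a, the main such ligand of mesenchyme (ENSMUSG00000021994, chromosome 14, 28504750 to 28527448, GRCm38), was at 11.5, 50.6, 12.9, 10.1 and 7.65 CPM in Fes KO 1 to 5 and 12.9, 11.8, 18.4, 11.4 and 14.8 CPM in Fes WT 1 to 5. Apart from Fes KO 2 the groups overlapped, and the log2 fold change was 0.42 with all tumours (SE 0.49, adjusted p = 0.812) and -0.41 without Fes KO 2. Wnt11 (ENSMUSG00000015957, chromosome 7, 98835112 to 98855195, GRCm38) was at 0.82, 31.1, 0.247, 0.327 and 0.146 CPM in Fes KO 1 to 5 and 1.11, 0.636, 3.54, 0.183 and 0.838 CPM in Fes WT 1 to 5. Fes KO 2 was far above the rest, and log2 fold change 2.36 ± 1.47 (SE, adjusted p = 0.628) turned to -1.69 without it. Wnt5b was at 1.83 to 4.49 CPM across Fes KO and 1.90 to 3.76 CPM across Fes WT, but it overlaps Fbxl14 on the opposite strand (632 to 885 counts per tumour). Wnt5b itself had 29 to 72 counts per tumour. Whole gene spans were compared rather than exons, so without a stated strand setting it is not known whether the 2 genes share reads. Outside that group, Wnt9a was at 4.54, 13.8, 4.5, 4.77 and 3.35 CPM across Fes KO and 8.62, 6.11, 8.73, 4.39 and 7.01 CPM across Fes WT. With all tumours it was the only tested ligand with a negative log2 fold change, -0.17 (SE 0.39, adjusted p = 0.917). Without Fes KO 2, 4 of the 8 tested ligands were below 0, and Wnt9a had an unadjusted p below 0.05 by edgeR.

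TCF/LEF factors bind a short motif whose core was searched here as CTTTGAA or CTTTGAT on both strands, in the 300 bases around each start site that RefSeq gives (GRCm38.p6). Of the 29 members found in that set, 3 (10.3%) held a match, Wnt11, Wnt5b and Dkk1, against 9.88% of all 27025 genes. Per window, 3 of 32 (9.38%) held one, against 8.65% of all windows. RefSeq gives 2 start sites for Wnt11 and 3 for Wnt5b, and 1 window of each gene held a match. The 250 bases before the start site of that window are printed for Wnt11, the tested member whose Fes KO 2 level exceeded the other tumours most, and for Wnt5b, a second ligand of the same branch whose tumours lay close together. Capitals mark the match, which reads ATCAAAG in Wnt11 (chr7:98834862-98835111, plus strand, starting 51 bases upstream) and CTTTGAT in Wnt5b (chr6:119449387-119449636, minus strand, starting 71 bases upstream).
Wnt11: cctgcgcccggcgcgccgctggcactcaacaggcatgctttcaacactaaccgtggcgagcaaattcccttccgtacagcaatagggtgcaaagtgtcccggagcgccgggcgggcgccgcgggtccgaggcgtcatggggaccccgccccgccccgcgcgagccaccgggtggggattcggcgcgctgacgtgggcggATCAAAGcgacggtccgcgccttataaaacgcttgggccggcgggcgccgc
Wnt5b: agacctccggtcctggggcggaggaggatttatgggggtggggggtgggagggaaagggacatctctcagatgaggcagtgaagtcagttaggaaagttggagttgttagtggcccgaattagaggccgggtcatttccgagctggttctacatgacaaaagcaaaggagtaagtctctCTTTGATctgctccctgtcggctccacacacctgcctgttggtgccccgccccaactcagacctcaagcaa
The match stands in opposite orientations in the pair. No match was found in the windows of Wnt6 and Wnt4, which says only that these letters are absent there.

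The remaining 11 ligands did not pass the filter on low counts. Several of them had counts almost only in Fes KO 2. Wnt7b was at 12.0 CPM there (192 counts) and at 0.610 CPM or below elsewhere. Wnt3 was at 9.73 CPM (156 counts), with 0.787 CPM in Fes WT 3 and at most 0.0630 CPM in the others. Wnt10b, known for driving hair growth, was at 5.55 CPM (89 counts) and at most 0.919 CPM elsewhere, and Wnt3a was at 2.43 CPM (39 counts), with 0.0656 CPM in Fes WT 3 and 0 in the other 8 tumours. These 4 ligands are known from the epithelium of mouse skin and hair follicle, and Fes KO 2 and Fes WT 3 were also the tumours with the highest hair follicle marker sums; the part of that tissue in these values was not tested. Wnt2, Wnt16 and Wnt9b reached 3.08, 1.44 and 0.437 CPM at most, and Wnt8a, Wnt1 and Wnt7a stayed at or below 0.0762 CPM.

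All 10 Frizzled receptors were tested, and 7 (70%) had log2 fold changes above 0, with a median of 0.41. Over all tested genes 52.4% were above 0, with a median of 0.01. Without Fes KO 2, 6 of the 10 receptors were above 0, with a median of 0.17. Without the 3 tumours that had Xist, 4 of the 10 were, with a median of -0.05. Fzd1, the receptor with the highest level (ENSMUSG00000044674, chromosome 5, 4753839 to 4758035, GRCm38), was at 453, 354, 278, 378 and 270.5 CPM in Fes KO 1 to 5 and 552, 346, 299, 620.2 and 325 CPM in Fes WT 1 to 5. The groups overlapped, with log2 fold change -0.31 ± 0.24 (SE, adjusted p = 0.712). Fzd2, which can transmit Wnt5a signals, was at 56.7, 92.6, 91.7, 91.5 and 137 CPM in Fes KO 1 to 5 and 66.2, 78.7, 63.9, 91.2 and 82.6 CPM in Fes WT 1 to 5, and Fes KO 5 was the highest and Fes KO 1 the lowest. Fzd7 was at 78.2, 83.8, 69.9, 74.2 and 59.8 CPM in Fes KO 1 to 5 and 79, 71.2, 43.3, 79.9 and 61.6 CPM in Fes WT 1 to 5, with Fes WT 3 the lowest. The log2 fold changes were 0.30 (SE 0.20, adjusted p = 0.663) for Fzd2 and 0.13 (SE 0.16, adjusted p = 0.836) for Fzd7.

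Fzd3 (ENSMUSG00000007989, chromosome 14, 65192449 to 65262463, GRCm38), a receptor of the planar polarity branch that guides axons, was the only tested member whose groups did not overlap. It was at 3.72, 5.36, 3.94, 3.99 and 3.5 CPM in Fes KO 1 to 5 and 2.74, 2.67, 3.02, 2.32 and 3.43 CPM in Fes WT 1 to 5. The lowest Fes KO tumour, Fes KO 5, exceeded the highest Fes WT tumour, Fes WT 5, by less than either group's SD. The means were 4.1 ± 0.731 CPM and 2.84 ± 0.415 CPM (SD, n = 5 each), with log2 fold change 0.53 ± 0.18 (SE, adjusted p = 0.40), an unadjusted p of 0.0158 and a range of 0.40 to 0.61 over the alternatives.

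Among the other receptors, Fes KO 2 was again separate. Fzd5, needed in mice for eye development and for Paneth cells of the gut (ENSMUSG00000045005, chromosome 1, 64730558 to 64737751, GRCm38), was at 4.92, 46.6, 4.93, 4.97 and 4.96 CPM in Fes KO 1 to 5 and 8.82, 4.39, 7.61, 6.77 and 4.04 CPM in Fes WT 1 to 5; without Fes KO 2 its log2 fold change went from 1.07 to -0.37. Fzd6, which orients hair follicles in mice, was at 4.98, 47.1, 7.95, 8.3 and 15.5 CPM in Fes KO 1 to 5 and 4.31, 5.16, 9.71, 2.87 and 11.4 CPM in Fes WT 1 to 5. Fzd10 was at 3.03, 16.8, 2.34, 1.9 and 1.6 CPM in Fes KO 1 to 5 and 2.02, 0.70, 4.0, 1.59 and 0.381 CPM in Fes WT 1 to 5. Both were highest in Fes KO 2, and without it their log2 fold changes were 0.44 and 0.33, against 1.33 (SE 0.64, adjusted p = 0.547) and 1.55 (SE 0.81, adjusted p = 0.573). With keratinocyte and muscle marker levels as covariates Fzd10 was called, at 1.87 (SE 0.30, adjusted p = 0.0430, and 0.0430 to 0.969 over the alternatives), in a fit that called 0.729% of all genes. Fzd4, the receptor of norrin in blood vessels, was at 51.7, 106, 47.8, 54.9 and 47.2 CPM in Fes KO 1 to 5 and 102, 79.9, 115, 59.1 and 52.1 CPM in Fes WT 1 to 5, and 4 of 5 Fes KO tumours lay between 47.2 and 54.9 CPM. The log2 fold change -0.41 ± 0.29 (SE, adjusted p = 0.672) and that of Fzd8, -0.41 (SE 0.23, adjusted p = 0.595), were below 0, and that of Fzd4 was -0.71 without Fes KO 2. Fzd9 stayed at or below 3.35 CPM.

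Both co-receptors were read at similar levels in all tumours. Lrp5 was at 129, 119.7, 118, 132 and 108 CPM in Fes KO 1 to 5 and 171, 117, 127, 145 and 108 CPM in Fes WT 1 to 5, with Fes WT 1 the highest. Lrp6 was at 151, 158, 157, 143 and 155 CPM in Fes KO 1 to 5 and 117, 148, 131, 155 and 121 CPM in Fes WT 1 to 5, with Fes KO 2 the highest and Fes WT 1 the lowest. Their groups overlapped, neither was called, and the log2 fold changes were -0.14 (SE 0.13, adjusted p = 0.752) and 0.18 (SE 0.09, adjusted p = 0.56).

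**Figure D4:**
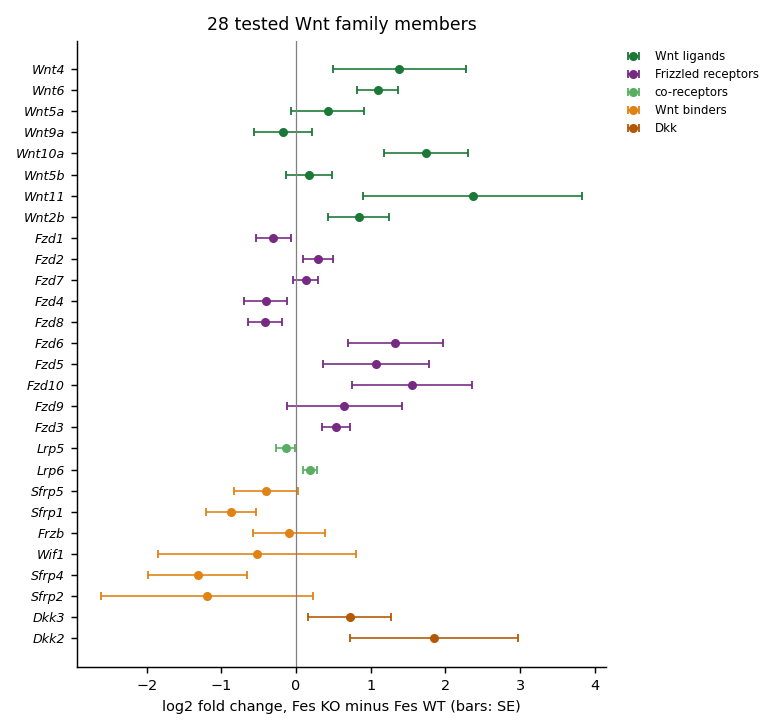
Log2 fold change, Fes KO minus Fes WT, of the 28 tested members with SE bars, by role and, within a role, by level. The 6 Wnt binders (orange) all lie below 0, from -1.32 to -0.10, and 7 of 8 ligands lie above 0, up to 2.36 for Wnt11. Of all tested genes 52.4% were above 0, and without Fes KO 2 only 4 of 8 tested ligands were.

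Log2 fold changes of all 6 secreted Wnt binders were below 0, with a median of -0.70. Over all tested genes the median was 0.01, and 52.4% were above 0. When Fes KO 1, Fes KO 2 or Fes WT 5 was left out, 4 or 5 of the 6 binders were below 0. Sfrp1 (ENSMUSG00000031548, chromosome 8, 23411502 to 23449632, GRCm38) was at 284, 173, 156, 288 and 113 CPM in Fes KO 1 to 5 and 446, 445, 176, 500.2 and 286 CPM in Fes WT 1 to 5. Every Fes KO tumour lay below 3 of the 5 Fes WT tumours, and Fes WT 3 and Fes WT 5 lay within the Fes KO range. The means were 203 ± 78.9 CPM across Fes KO and 371 ± 135 CPM across Fes WT (SD, n = 5 each), with log2 fold change -0.87 ± 0.33 (SE, adjusted p = 0.452) and an unadjusted p of 0.026. Sfrp5 (ENSMUSG00000018822, chromosome 19, 42197971 to 42202252, GRCm38), the member with the highest level per kilobase, was at 434, 122, 160.0, 386 and 159 CPM in Fes KO 1 to 5 and 552, 302, 175, 428 and 212 CPM in Fes WT 1 to 5, with log2 fold change -0.41 ± 0.43 (SE, adjusted p = 0.795). In both genes Fes KO 1, Fes KO 4, Fes WT 1 and Fes WT 4 were the high tumours of their groups, joined by Fes WT 2 for Sfrp1.

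Frzb, the third Sfrp-related binder named by level (ENSMUSG00000027004, chromosome 2, 80411970 to 80447625, GRCm38), was at 18.5, 7.61, 48.9, 61.7 and 42 CPM in Fes KO 1 to 5 and 47.1, 41.4, 21.9, 30.8 and 50.2 CPM in Fes WT 1 to 5. Fes KO 2 was the lowest, and the log2 fold change of -0.10 (SE 0.48, adjusted p = 0.963) was 0.15 without that tumour. Wif1 spread widely within both groups, from 0.493 CPM in Fes KO 3 to 67.0 CPM in Fes KO 4 and from 0.522 CPM in Fes WT 1 to 89.3 CPM in Fes WT 5. Sfrp4 was at 1.48 to 11.8 CPM across Fes KO and 4.44 to 26.2 CPM across Fes WT, with log2 fold change -1.32 ± 0.67 (SE, adjusted p = 0.567). Sfrp2 was at 0 to 7.98 CPM and 0.0610 to 11.5 CPM. Fibroblast markers, 12 of 12 of them found, summed to 38655 to 62045 CPM across Fes KO and 34314 to 57571 CPM across Fes WT. Most of these sums came from Col1a1, Col1a2 and Col3a1, so they say little about the other markers. Of the 12, 4 had log2 fold changes above 0, with a range from -1.23 for Thy1 to 0.67 for Twist2. Adipocyte markers summed to 85.9 to 917 CPM across Fes KO and 172 to 1149 CPM across Fes WT. Macrophage markers summed to 942 to 2222 CPM across Fes KO and 1529 to 3561 CPM across Fes WT. No marker of these lists was called, and their part in the values of the binders was not tested.

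Dkk3 (ENSMUSG00000030772, chromosome 7, 112116017 to 112159057, GRCm38), a divergent Dickkopf whose effect on Wnt signalling depends on the cell type, was at 263, 156, 402, 179 and 481 CPM in Fes KO 1 to 5 and 80.7, 153, 117, 67.9 and 482 CPM in Fes WT 1 to 5. As with Wnt4, Fes WT 5 was the highest tumour and far above the other 4 Fes WT tumours. The log2 fold change 0.72 ± 0.56 (SE, adjusted p = 0.708) became 1.5 without Fes WT 5 (adjusted p = 0.189, and 0.107 to 0.876 over the alternatives). Dkk2, which binds Lrp5 and Lrp6, was at 1.83, 12.7, 1.23, 0.196 and 2.62 CPM in Fes KO 1 to 5 and 0.131, 0.0636, 1.25, 0.427 and 3.35 CPM in Fes WT 1 to 5, with log2 fold change 1.84 ± 1.12 (SE, adjusted p = 0.62), and 0.49 without Fes KO 2, the highest tumour. Dkk1 had at most 4 counts in a tumour (0.305 CPM).

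The 4 R-spondins did not pass the filter on low counts. Rspo3, known for its role in blood vessels and placenta (ENSMUSG00000019880, chromosome 10, 29452416 to 29535867, GRCm38), was at 0.063, 0.374, 0.123, 0.523 and 0 CPM in Fes KO 1 to 5 and 0.849, 1.15, 1.77, 1.4 and 0.534 CPM in Fes WT 1 to 5, from 105 counts in all. In CPM every Fes KO tumour lay below every Fes WT tumour, the closest pair being Fes KO 4 and Fes WT 5. In raw counts that pair was reversed, with 8 counts in Fes KO 4 and 7 counts in Fes WT 5, so the separation rests on the library scaling. Of all tested genes, 1.9% had groups that did not overlap. In a fit without the filter on low counts its log2 fold change was -2.35 (SE 0.73, adjusted p = 0.540, and 0.145 to 0.625 over the alternatives that kept it). Rspo4 was at 0.252, 2.99, 0.185, 2.62 and 0.364 CPM in Fes KO 1 to 5 and 0.131, 0.191, 0.787, 0.305 and 2.21 CPM in Fes WT 1 to 5, with Fes KO 2, Fes KO 4 and Fes WT 5 (48, 40 and 29 counts) above the rest. Rspo1 reached 2.56 CPM (41 counts) in Fes KO 2 and at most 0.787 CPM elsewhere, and Rspo2 had 6 counts in all.

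Across the family, Fes KO 2 was the highest tumour for 12 of the 28 tested members (42.9%), against 17.5% of all tested genes, and for 21 of the 45. Its level was set against the median of the other 9 tumours for the 31 members whose median exceeded 3 counts (0.229 CPM). The ratio was 48.8-fold for Wnt11, 10.3-fold for Dkk2, 9.81-fold for Rspo4, 9.74-fold for Sfrp2, 9.40-fold for Fzd5 and 8.85-fold for Fzd10. In the other direction it was 0.181-fold for Frzb, 0.217-fold for Wnt4 and 0.406-fold for Sfrp5. The co-receptors, Fzd1, Fzd2 and Wnt6 were between 0.910-fold and 1.12-fold of that median. For Wnt11, Wnt3, Wnt10b, Wnt3a and Fzd10 the next highest tumour was Fes WT 3, the other tumour with hair follicle markers. Other members high in Fes KO 2 differed. The next highest was Fes WT 5 for Dkk2 (3.35 CPM) and Wnt7b (0.610 CPM) and Fes KO 4 for Rspo4 (2.62 CPM) and Wnt10a (3.66 CPM). It was Fes WT 1 for Fzd5 (8.82 CPM) and Fes KO 5 for Fzd6 (15.5 CPM). Sfrp2 was higher in Fes WT 1 (11.5 CPM) than in Fes KO 2 (7.98 CPM).

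**Figure D5:**
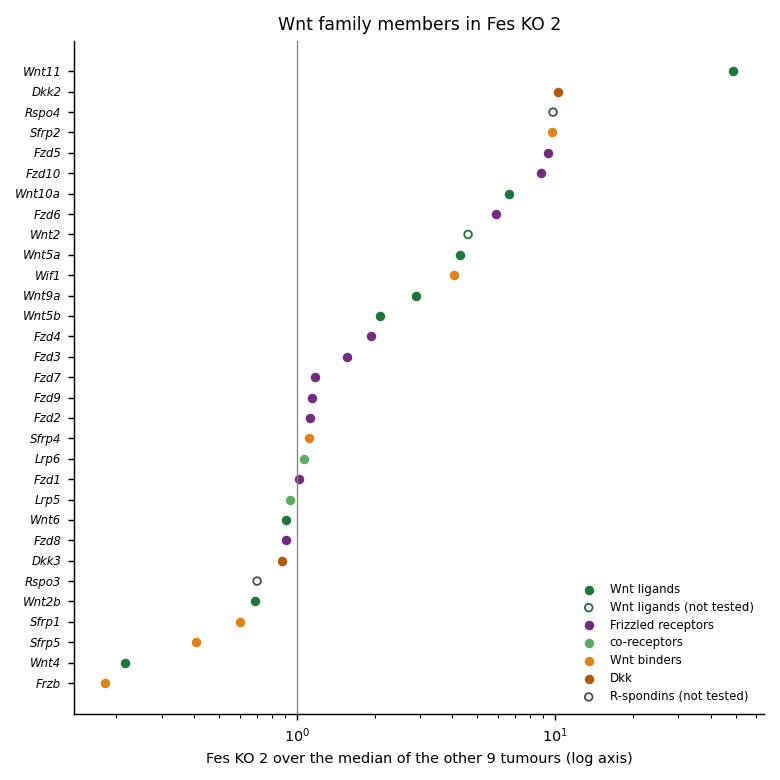
Level in Fes KO 2 over the median of the other 9 tumours on a log axis, for the 31 members with a median above 3 counts; open circles are members that did not pass the filter on low counts. Points run from 0.181 for Frzb to 48.8 for Wnt11, and the line marks equality.

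Other genes of the pathway were taken from 6 lists of 82 genes, and 74 were tested. None was called by edgeR, and 8 had an unadjusted p below 0.05 (10.8%, against 9.62% of all tested genes). All 8 had higher values in Fes KO, while over all tested genes 627 such genes were higher and 798 lower. Of the 74, 56 (75.7%) were above 0 with a median of 0.14, against 52.4% and 0.01 over all tested genes. The lists were chosen with earlier results of these data known and were not tested as sets. DESeq2 called 2 of the 74, Vangl2 and Amer1, where it called 1.82% of all genes. By list, the genes with an unadjusted p below 0.05 were 2 of 10 in secretion and extracellular handling, 3 of 12 among other receptors and receptor turnover, 1 of 18 in the cytoplasmic machinery, 1 of 13 in the planar polarity branch, 0 of 13 among nuclear factors and 2 of 14 target genes; Apcdd1 is in the first and the last list.

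Vangl2, a core membrane protein of planar polarity (ENSMUSG00000026556, chromosome 1, 172000960 to 172028444, GRCm38), was at 35.2, 68, 40.6, 38.8 and 39.4 CPM in Fes KO 1 to 5 and 28.1, 18.7, 22.8, 27.6 and 23.8 CPM in Fes WT 1 to 5. Vangl2 was the 1 of the 74 tested partner genes (1.35%) whose groups did not overlap, against 1.9% of all tested genes. Its log2 fold change was 0.87 ± 0.19 (SE, adjusted p = 0.18), and DESeq2 gave an adjusted p of 0.00535, in a range of 0.00535 to 0.427 over the alternatives. Amer1, a scaffold of the beta-catenin destruction complex, was at 18.5, 18.8, 17.6, 16.7 and 15 CPM in Fes KO 1 to 5 and 15.1, 13.8, 12.3, 13 and 13.6 CPM in Fes WT 1 to 5, with log2 fold change 0.35 ± 0.11 (SE, adjusted p = 0.318) by edgeR and an adjusted p of 0.0477 by DESeq2, in a range of 0.0477 to 0.625 over the alternatives. Fes KO 5 and Fes WT 1 met at the border of the groups. These were the only 2 of the 74 with an unadjusted p below 0.01, against 2.88% of all tested genes.

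Axin2, a feedback target induced by beta-catenin in many tissues, was at 21.8, 16.3, 33.8, 21.6 and 46.7 CPM in Fes KO 1 to 5 and 17, 19.9, 7.74, 10.6 and 31.3 CPM in Fes WT 1 to 5. Fes KO 5, Fes KO 3 and Fes WT 5 were the highest and the groups overlapped, with log2 fold change 0.70 ± 0.40 (SE, adjusted p = 0.60). Apcdd1, a Wnt inhibitor and target, was at 64.9, 52.1, 84.1, 86.2 and 135 CPM in Fes KO 1 to 5 and 31.5, 41.3, 35.4, 37 and 93.3 CPM in Fes WT 1 to 5, again with Fes WT 5 apart from the other Fes WT tumours. Its log2 fold change 0.82 ± 0.34 (SE, adjusted p = 0.494) became 1.48 (SE 0.18, adjusted p = 0.0297, and 0.0297 to 0.758 over the alternatives) without the 3 tumours that had Xist. That fit called 0.424% of all genes. Apcdd1 and Bambi, named here after their values were seen, were the target genes with an unadjusted p below 0.05. Bambi, an inhibitor of TGF-beta signalling, was at 38.1, 54.1, 68.9, 11.6 and 64.2 CPM in Fes KO 1 to 5 and 8.49, 23.7, 14.2, 22.7 and 21 CPM in Fes WT 1 to 5, with log2 fold change 1.39 ± 0.44 (SE, adjusted p = 0.345). Lef1 was at 19.1 CPM in Fes KO 2, at 8.0 and 5.71 CPM in Fes WT 5 and Fes WT 3, and at 2.26 CPM or below elsewhere. Ctnnb1, which encodes beta-catenin, was at 732 to 923 CPM across Fes KO and 650.3 to 937 CPM across Fes WT, with log2 fold change 0.07 ± 0.13 (SE, adjusted p = 0.902). Porcn and Wls, needed to acylate and to secrete Wnts, had log2 fold changes of -0.12 (SE 0.18, adjusted p = 0.865) and -0.04 (SE 0.13, adjusted p = 0.946).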

How the data were processed

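RNA of 10 mouse melanomas was sequenced, 5 labelled Fes KO and 5 labelled Fes WT, from RNeasy RNA of RIN above 7 per the labels. The full genotype that all tumours share is not reported here. The authors deposited raw read counts per gene and log2 values of the same 47643 genes; from the values, each log2 value is the log2 of the count over a size factor plus 1. The submitters' processing notes list FastQC, STAR (2.51b), Subread (1.4.6) and the builds mm10 and GRCm38. The strand setting is not given in the sources used here. Totals were 13226783 to 16599120 counts per tumour, which puts 3 counts at 0.183 to 0.229 CPM.

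The test was edgeR's (4.0.16, R 4.3.3; TMM factors, filterByExpr with the group, quasi-likelihood fit, 2-sided, Benjamini-Hochberg adjustment over 14816 genes), and the script was tested on simulated counts. Those counts followed a negative binomial distribution with the spread per gene that edgeR estimated, and no tumour was set apart in them. In them edgeR called 40% of the 2-fold and 84% of the 4-fold changes, with 6 of 130 calls false. DESeq2 called 61% and 92%, with 52 of 205 calls false. Positive log2 fold changes mean higher values in Fes KO. CPM uses TMM-scaled library sizes, and levels per kilobase use the summed exon length of GENCODE M21. Alternatives used DESeq2 version 1.42.0, limma version 3.58.1 (voom with sample quality weights, and on the log2 values), other scaling factors, filters and covariates, the replicate number as a block, and fewer tumours. Named in full are members with an unadjusted p below 0.05, the 3 tested members of each role with the highest level per kilobase (2 co-receptors), and those whose highest tumour is at least 5 times the next. Partner genes are named at an unadjusted p below 0.01, with Axin2, Lef1, Ctnnb1, Porcn and Wls; other values are given as ranges or for completeness. Members and lists were chosen with earlier results of these data known. No tumour and no column was left out.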

Additional observations from a re-analysis of the deposited data

Results flagged for a closer look

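For each gene and group, the gap between the extreme tumour and its nearest neighbour was divided by the range of the group's 5 tumours. Over the 28 tested members, a ratio above 0.71 marked 16 of 56 pairs, 12 of them in Fes KO 2. Chance alone marks about 5% of groups of normally distributed values, which CPM need not be. Marks in the same tumour are not independent, so the 2 shares cannot be compared directly. Of the untested members, Wnt3, Wnt7b, Wnt10b and Wnt3a were examined because their highest tumour was at least 5 times the next, which favours a mark, so their 6 marks, 4 in Fes KO 2, are a description only. No cause was tested.

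Fes KO 2 was the extreme tumour for 15 members by a high value. The ligands were Wnt5a at 50.6 CPM, Wnt11 at 31.1 CPM, Wnt9a at 13.8 CPM, Wnt7b at 12.0 CPM, Wnt10a at 10.9 CPM, Wnt3 at 9.73 CPM, Wnt10b at 5.55 CPM and Wnt3a at 2.43 CPM. The receptors were Fzd4 at 106 CPM, Fzd6 at 47.1 CPM, Fzd5 at 46.6 CPM, Fzd10 at 16.8 CPM and Fzd3 at 5.36 CPM. Dkk2 at 12.7 CPM and Sfrp2 at 7.98 CPM completed them. Wnt4, at 56.3 CPM, was the 1 member for which Fes KO 2 was extreme by a low value. Elsewhere in Fes KO, Wif1 was marked in Fes KO 4 at 67.0 CPM.

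In Fes WT, Fes WT 5 was marked for Dkk3 at 482 CPM and Wnt4 at 343 CPM. Fes WT 3, the other tumour with hair follicle markers, was marked for Wnt11 at 3.54 CPM, Wnt3 at 0.787 CPM and Wnt3a at 0.0656 CPM; the last is 1 count.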

How the results depend on the processing

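The 26 genes called over all genes became 270 by DESeq2, 115 by limma-voom with sample quality weights, 108 with keratinocyte and muscle covariates, 64 without the tumours with Xist, 49 at an adjusted p below 0.1 and 4 with the replicate block, and 10 (without Fes KO 1 or Fes KO 3) to 54 (without Fes WT 5) when 1 tumour was left out. Of the members, DESeq2 called 1 (Wnt6) and the covariate fit 1 (Fzd10), and the other alternatives called 0. Of the partner genes, DESeq2 called 2, the fit without the tumours with Xist 1 (Apcdd1), and the others 0. Of the 17 members named by rule, 12 kept their direction in every alternative run, and 336 of 354 fits had it. Turned directions (log2 fold changes) were -0.90 for Wnt11, -0.12 for Wnt5a and -0.0857 for Fzd5 by limma-voom with the weights; -0.30 for Wnt11 with the replicate block; 0.0077 for Frzb, -0.28 for Fzd5, -0.0533 for Fzd7 and -0.28 for Wnt5a without Fes KO 2 and Fes WT 3 together; and 0.53 for Frzb, -0.48 for Fzd5, -0.0062 for Fzd7 and -0.41 for Wnt5a without the tumours with Xist. With 1 tumour left out, the values ran from -0.39 to 0.15 for Frzb, -0.37 to 1.29 for Fzd5, -1.69 to 3.23 for Wnt11 and -0.41 to 0.62 for Wnt5a. The turns of Fzd5, Wnt11 and Wnt5a came without Fes KO 2; the cause was not tested. Same-numbered tumours of the groups correlated at 0.17, -0.38, -0.21, -0.11 and 0.14 in their deviations from the group means, none correlated best with its own number, and the labels do not pair them. The filter on low counts kept 17 members out of the test. Without it 43 were tested, all but Wnt8b and Dkk4, which had no count. At this depth 3 counts are 0.183 to 0.229 CPM. Wnt11 could not be fitted in 3 alternatives whose filter removed it.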
